A study of Saccharomyces cerevisiae with 5 samples.

Results

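The 7 genes described here encode the acetaldehyde-type aldehyde dehydrogenases ALD2, ALD3, ALD4, ALD5 and ALD6 and the acetyl-CoA synthetases ACS1 and ACS2 of the budding yeast Saccharomyces cerevisiae. They were taken by systematic name from a table of 6567 features. All 7 were measured, none was listed at 0 in any strain, and all 7 were among the 6192 features with a mean of at least 5 FPKM over the strains. FPKM counts sequenced fragments per kilobase of the gene, scaled to the mapped total, so that levels of different genes can be compared within a strain.

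Poly(A) RNA was sequenced from 5 strains kept as asynchronous cultures in rich medium at 30 °C and taken in mid-log phase. WT was BY4741, a haploid of mating type a with mutations in his3, leu2, met15 and ura3. The mutants ino80d (WYY0193, ino80::LEU2), arp8d (WYY0196, arp8::LEU2), arp5d (WYY0194, arp5::LEU2) and ies6d (WYY0195, ies6::LEU2) are labelled as made in BY4741. Each lacked 1 subunit gene of INO80, a chromatin remodelling complex that moves nucleosomes, and carried the LEU2 marker in its place. INO80 encodes the motor subunit, ARP8 and ARP5 encode actin-related subunits, and IES6 encodes a small subunit that works with Arp5.

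Each strain had 1 value per gene for its 2 biological replicates. There was therefore no replicate error, no difference was tested, and differences are described by size alone. The 4 deleted genes had little or no RNA in the strains that lack them, and LEU2 was at 0.0619 FPKM in WT and between 81.3 and 125 FPKM in the mutants. Loss of a subunit and presence of LEU2 cannot be told apart, because every mutant had both. The strains also differed at MET17, the gene also called MET15, which was at 807 FPKM in ino80d and 564 in arp8d but at 0.2005 to 0.571 in the other 3 strains. LYS2, a lysine synthesis gene, was at 0.0138 FPKM in ino80d and 0.0390 in arp5d, and between 25.01 and 36.9 in the others. The MET17 levels of ino80d and arp8d go against the met15 mutation of the labelled background, and the LYS2 levels of ino80d and arp5d differ from those of WT, for which no lys2 mutation is labelled. The label BY4741 is therefore not borne out at these genes in ino80d, arp8d and arp5d, and for these strains loss of the subunit and the other differences from WT cannot be told apart. In ies6d, the 1 mutant near WT at both genes, ALD3, ALD4 and ACS1 were at least 1.5-fold higher than WT and ALD5 and ACS2 at least 1.5-fold lower. This strain had another difference, on chromosome III, where none of the genes described here lies. There 33.3% of genes were at least 1.5-fold higher in ies6d, against 14.4% of all features. In the other mutants 15.4% to 22.4% of the genes of that chromosome were. The depth of the libraries is unknown.

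Yeast growing on glucose turns most of its pyruvate into acetaldehyde through pyruvate decarboxylase. Alcohol dehydrogenase reduces acetaldehyde to ethanol, while aldehyde dehydrogenases oxidise part of it to acetate. Acetyl-CoA synthetases then join acetate to coenzyme A, which supplies the cytosol and nucleus with acetyl-CoA for lipid synthesis and histone acetylation. ALD6 encodes the main cytosolic aldehyde dehydrogenase, which makes NADPH. ALD4 and ALD5 encode mitochondrial enzymes, of which Ald4 is the major one in cells that use ethanol and is repressed by glucose. ALD2 and ALD3 encode cytosolic enzymes that also act in the synthesis of beta-alanine, a precursor of coenzyme A. ACS2 is needed for growth on glucose, whereas ACS1 is repressed by glucose.

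Functionally paired genes parted in the mutants, although the split between ALD2 and ALD3 is uncertain because their coding sequences are much alike. ALD3 and ALD4 were at least 1.5-fold higher than WT in all 4 mutants, ALD5 and ACS2 were at least 1.5-fold lower in all 4, and ALD2 stayed within 1.5-fold in each. ALD6 was at least 1.5-fold higher in ino80d and arp8d, and ACS1 in arp5d, ies6d and ino80d. A fold was taken as the ratio of FPKM + 1, and 1.5-fold corresponds to a log2 ratio of 0.58.

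Counted per strain, 4 of the 7 members were past 1.5-fold upward in ino80d, where 15.1% of all 6192 features were, and 2 were past it downward, against 13.2%. In arp8d 3 members were higher, against a background of 11%, and 2 were lower, against 8.33%. In arp5d 3 members were higher, against 13.3%, and 2 were lower, against 10.9%. In ies6d 3 members were higher, against 14.4%, and 2 were lower, against 10.4%. The 2 members higher in all 4 mutants stand beside 7.98% of all features, and the 2 lower in all 4 beside 4.78%.

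At 2-fold, 3 members were higher in ino80d, against 6.82% of all features, 3 in arp8d, against 5.1%, 2 in arp5d, against 6.44%, and 2 in ies6d, against 7.28%. In the same strains 2 members were 2-fold lower in ino80d, against 4.39%, 1 in arp8d, against 2.45%, 1 in arp5d, against 3.6%, and 1 in ies6d, against 3.55%. All of these comparisons share the single WT value of each gene. ACS1 was among the 3 members that were 2-fold higher in ino80d. With the median of its chromosome taken off, its log2 ratio there was 0.65, short of 2-fold. The median log2 ratio of the 7 genes was 0.56 in arp5d, 0.58 in ies6d, 0.79 in ino80d and 0.45 in arp8d, against -0.02, -0.02, -0.01 and -0.02 over all features.

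**Figure D1:**
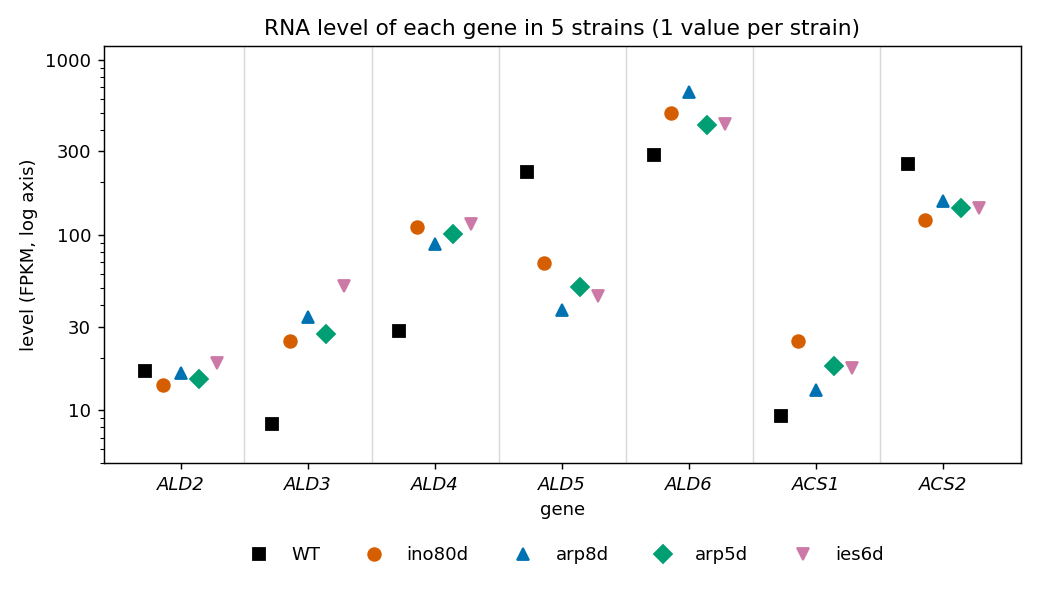
Level of each gene in FPKM on a log axis, with 1 point per strain and no error bars because each strain has 1 value. WT lies below all 4 mutants for ALD3, ALD4, ALD6 and ACS1 and above all 4 for ALD5 and ACS2, while for ALD2 the 5 strains lie between 13.97 and 18.7 FPKM.

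ALD6 (YPL061W, chromosome XVI, 432588 to 434090, 1 coding exon) was the most abundant of the 7 genes in every strain. Its level was 286 FPKM in WT, against 423 in arp5d, 428 in ies6d, 496 in ino80d and 656 in arp8d. Every mutant was above WT, arp8d by the most, while arp5d and ies6d lay next to each other. The log2 ratio to WT was 0.56 in arp5d, 0.58 in ies6d, 0.79 in ino80d and 1.19 in arp8d, so that arp5d and ies6d fell just short of 1.5-fold. With all strains set to the same FPKM sum, the value was 0.61 in arp5d, past that limit, and 0.44 in ies6d, farther short of it. With each strain centred on its median, it was 0.58 in arp5d, still just short, and 0.60 in ies6d, past the limit. The arp8d value was also at least 1.5-fold above those of arp5d and ies6d. The 2 strains past 1.5-fold, ino80d and arp8d, were also the pair with MET17 RNA, and the part of that difference was not tested. They are a pair by the 1.5-fold limit only. The log2 level in ino80d minus that in arp8d was -0.40, and minus those in arp5d and ies6d it was 0.23 and 0.21.

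ALD6 RNA made up 50.3% of the summed FPKM of the 5 aldehyde dehydrogenase genes in WT, against 68.4% in arp5d, 65.01% in ies6d, 69.4% in ino80d and 78.8% in arp8d. The sum itself was 569 FPKM in WT, against 618 in arp5d, 659 in ies6d, 716 in ino80d and 832 in arp8d. As a ratio of FPKM without 1 added, the family's total thus differed from WT by no more than 1.46-fold. Single members differed by up to 6.16-fold on the same measure.

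ALD5 (YER073W, chromosome V, 304030 to 305592, 1 coding exon), a mitochondrial enzyme gene, differed from WT by more than any of the other 6 genes in arp5d and arp8d. Its level was 229 FPKM in WT, against 50.8 in arp5d, 44.8 in ies6d, 69.3 in ino80d and 37.2 in arp8d. The mutants were all far below WT, arp8d the lowest and ino80d the highest. The log2 ratio was -2.15 in arp5d, -2.33 in ies6d, -1.71 in ino80d and -2.59 in arp8d. In WT 82.3% of all features lay at or below its level, and in the mutants between 38.2% and 56.9%.

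ALD4 (YOR374W, chromosome XV, 1039840 to 1041399, 1 coding exon), the other mitochondrial enzyme gene, went the opposite way. Its level was 28.4 FPKM in WT, against 102 in arp5d, 116 in ies6d, 111 in ino80d and 88.6 in arp8d. The 4 mutants lay close together, with the highest 1.31 times the lowest, and well above WT. The log2 ratio was 1.81 in arp5d, 1.99 in ies6d, 1.93 in ino80d and 1.61 in arp8d.

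The order of the mitochondrial pair was therefore turned around. ALD5 RNA was 8.07 times ALD4 RNA in WT, whereas ALD4 RNA exceeded ALD5 RNA by a factor of 2.01 in arp5d, 2.59 in ies6d, 1.60 in ino80d and 2.38 in arp8d. A ratio of genes within a strain does not depend on how the strains are scaled to each other. The sum of both genes was lower in the mutants, with 258 FPKM in WT against 153 in arp5d, 161 in ies6d, 180.5 in ino80d and 126 in arp8d. The coding sequences of ALD4 and ALD5 were identical at 64.1% of aligned positions, and no stretch of 50 bases of either occurs elsewhere in the genome, so that each such stretch belongs to 1 gene of the pair.

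The DNA before ALD4 and ALD5 is shown because the genes differed in opposite directions and both windows hold the same short motif, whose part was not tested. The windows run from 300 to 151 bases before the start codon, 5′ to 3′ on the strand of the gene, on the RefSeq R64 assembly, which is the same as sacCer3. Capitals mark the core of the stress response element (STRE), AGGGG on either strand, to which the stress factors Msn2 and Msn4 bind.
ALD4 (chrXV:1039540-1039689, + strand): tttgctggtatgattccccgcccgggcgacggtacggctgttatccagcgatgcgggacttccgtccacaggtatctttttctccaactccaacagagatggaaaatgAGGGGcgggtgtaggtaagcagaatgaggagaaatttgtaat
ALD5 (chrV:303730-303879, + strand): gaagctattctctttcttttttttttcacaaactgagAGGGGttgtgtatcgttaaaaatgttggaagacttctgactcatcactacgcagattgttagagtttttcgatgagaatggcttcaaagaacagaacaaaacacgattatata
The motif begins 192 bases before the start codon in ALD4 and 263 bases before it in ALD5, on the strand of the gene in both.

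**Figure D2:**
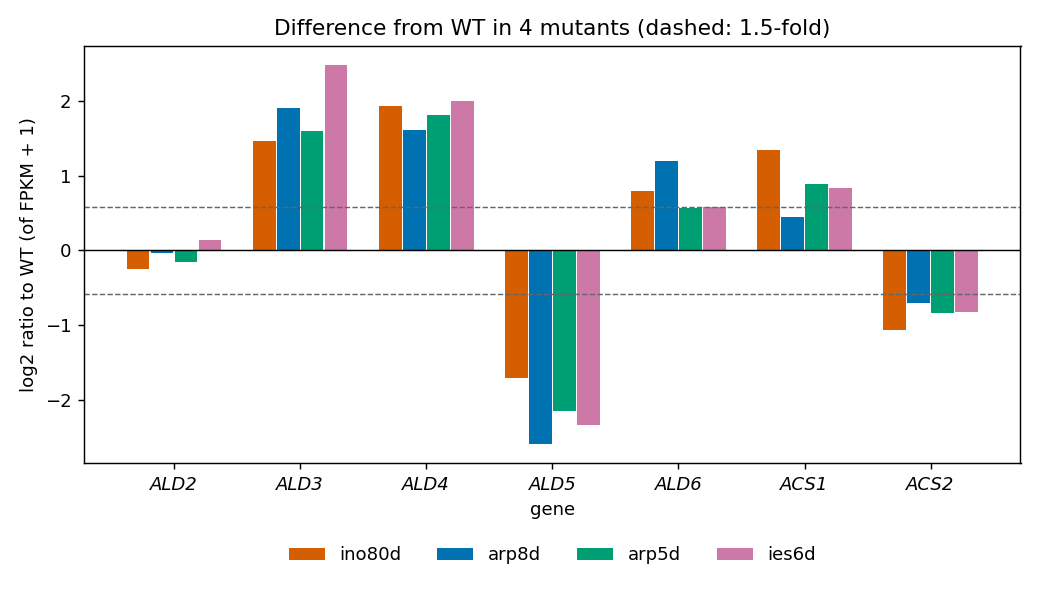
Log2 ratio of FPKM + 1 to WT for each gene, with 1 bar per mutant and dashed lines at 1.5-fold. ALD3 and ALD4 lie above the upper line in all 4 mutants, ALD5 and ACS2 lie below the lower line in all 4, and ALD2 lies between -0.25 and 0.14.

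ALD2 and ALD3 are neighbours on the same strand of chromosome XIII, 689 bases apart. The level of ALD3 (YMR169C, 599352 to 600872, 1 coding exon) was 8.35 FPKM in WT, against 27.3 in arp5d, 51.1 in ies6d, 24.8 in ino80d and 33.9 in arp8d. All mutants were above WT, and ies6d stood above the other 3. The log2 ratio was 1.60 in arp5d, 2.48 in ies6d, 1.46 in ino80d and 1.90 in arp8d, and ies6d was at least 1.5-fold above ino80d and arp5d as well.

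The level of ALD2 (YMR170C, 601562 to 603082, 1 coding exon) was 16.8 FPKM in WT, against 15.04 in arp5d, 18.7 in ies6d, 13.97 in ino80d and 16.4 in arp8d. The mutants lay on both sides of WT, with a log2 ratio of -0.15 in arp5d, 0.14 in ies6d, -0.25 in ino80d and -0.03 in arp8d. ALD3 RNA was 0.497 times ALD2 RNA in WT, and this ratio was 1.82 in arp5d, 2.74 in ies6d, 1.77 in ino80d and 2.07 in arp8d.

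The values of both genes are uncertain, because the coding sequences are identical at 91.8% of 1521 positions and 40.4% of the 50-base windows of each occur again elsewhere in the genome. How fragments that fit both genes were assigned is not given in the sources used here. The sum of the pair, which such sharing affects less, was 25.2 FPKM in WT, against 42.4 in arp5d, 69.8 in ies6d, 38.8 in ino80d and 50.3 in arp8d. This sum was 1.54 to 2.77 times that of WT.

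The first 329 coding bases of ALD2 and ALD3 are identical, whereas bases 1450 to 1509, near the end, differ most. These 60 bases are shown, with the 21 differing bases in capitals, because reads from such stretches are the ones that tell the genes apart.
ALD2 (chrXIII:601574-601633, - strand): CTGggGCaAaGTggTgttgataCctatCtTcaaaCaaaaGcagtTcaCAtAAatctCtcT
ALD3 (chrXIII:599364-599423, - strand): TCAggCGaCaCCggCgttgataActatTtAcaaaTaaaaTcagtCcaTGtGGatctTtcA
The windows from 300 to 151 bases before the start codons are shown with the same STRE core in capitals, since the neighbours parted in the mutants.
ALD2 (chrXIII:603233-603382, - strand): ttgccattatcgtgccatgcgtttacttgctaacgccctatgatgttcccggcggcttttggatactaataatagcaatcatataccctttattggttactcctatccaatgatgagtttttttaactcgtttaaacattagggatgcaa
ALD3 (chrXIII:601023-601172, - strand): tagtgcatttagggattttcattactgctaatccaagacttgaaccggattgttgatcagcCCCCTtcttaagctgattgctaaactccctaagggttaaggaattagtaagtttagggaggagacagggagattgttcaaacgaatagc
The ALD3 window has the core on the opposite strand, where it reads CCCCT, starting 239 bases before the start codon. These letters are not in the ALD2 window.

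In the 300 bases before the start codon, on both strands, the STRE core was present in 4 of the 7 genes, ALD3, ALD4, ALD5 and ALD6, and in 22.2% of 6001 protein-coding genes. The core of the carbon source response element, which Cat8 and Sip4 bind, was searched as CC and CCG with 6 bases of any kind between them. It was present before ALD6 and ACS1 and in 11.1% of all, and the match before ALD6 overlaps its STRE core. The letters CCAAT, bound by the Hap complex, were present before ALD2 and ACS1 and in 41.8% of all. The STRE core stood before ALD5, which was lower in the mutants, as well as before genes that were higher. Whether any of these motifs bears on the levels was not tested.

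**Figure D3:**
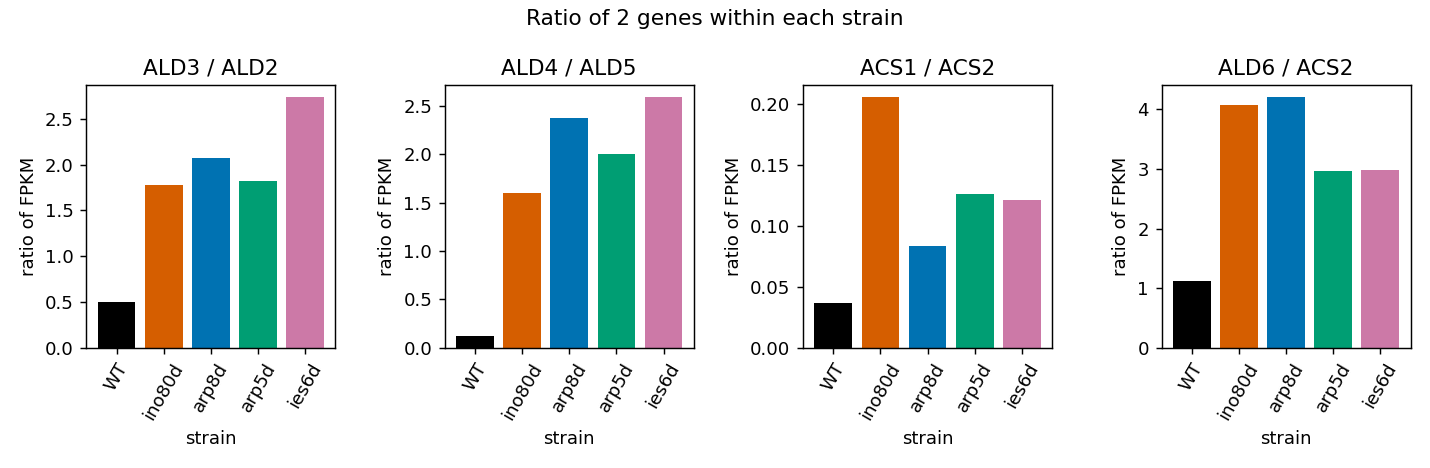
Ratio of the FPKM of a pair of genes within each strain, with 1 bar per strain. WT has the lowest bar in all 4 panels; ALD4 to ALD5 goes from 0.124 in WT to between 1.60 and 2.59 in the mutants, and ALD6 to ACS2 from 1.12 to between 2.96 and 4.20.

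ACS2 (YLR153C, chromosome XII, 445524 to 447575, 1 coding exon), the acetyl-CoA synthetase gene of glucose-grown cells, had a level of 255 FPKM in WT, against 143 in arp5d, 143 in ies6d, 122 in ino80d and 156 in arp8d. All mutants were below WT, and the highest of them was 1.28 times the lowest. The log2 ratio was -0.83 in arp5d, -0.83 in ies6d, -1.06 in ino80d and -0.71 in arp8d. With all strains set to the same FPKM sum, the arp8d value was -0.42, short of 1.5-fold.

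ACS1 (YAL054C, chromosome I, 42881 to 45022, 1 coding exon) had a level of 9.28 FPKM in WT, against 17.997 in arp5d, 17.4 in ies6d, 25.04 in ino80d and 12.99 in arp8d. WT was the lowest, arp8d came next and ino80d stood highest. The log2 ratio was 0.89 in arp5d, 0.84 in ies6d, 1.34 in ino80d and 0.45 in arp8d, and ino80d was at least 1.5-fold above arp8d.

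In ino80d the genes of chromosome I, where ACS1 lies, were higher on the whole. The 84 genes of this chromosome that passed the low-value filter had a median log2 ratio of 0.69 in ino80d, with 51 of them at least 1.5-fold higher, against medians of 0.13 in arp5d, 0.08 in ies6d and 0.10 in arp8d. The genes beside ACS1 were higher in ino80d too. PEX22, a peroxisomal protein gene, had a log2 ratio of 0.79 there and FLC2, a putative flavin carrier gene, of 1.14, while in the other mutants both lay between 0.16 and 0.40. With the chromosome median taken off, ACS1 had a log2 ratio of 0.76 in arp5d, 0.76 in ies6d, 0.65 in ino80d and 0.34 in arp8d, so that ino80d no longer stood highest. In ino80d 8 genes of chromosome I had a higher log2 ratio than ACS1. The number of copies of the chromosome was not measured here.

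**Figure D4:**
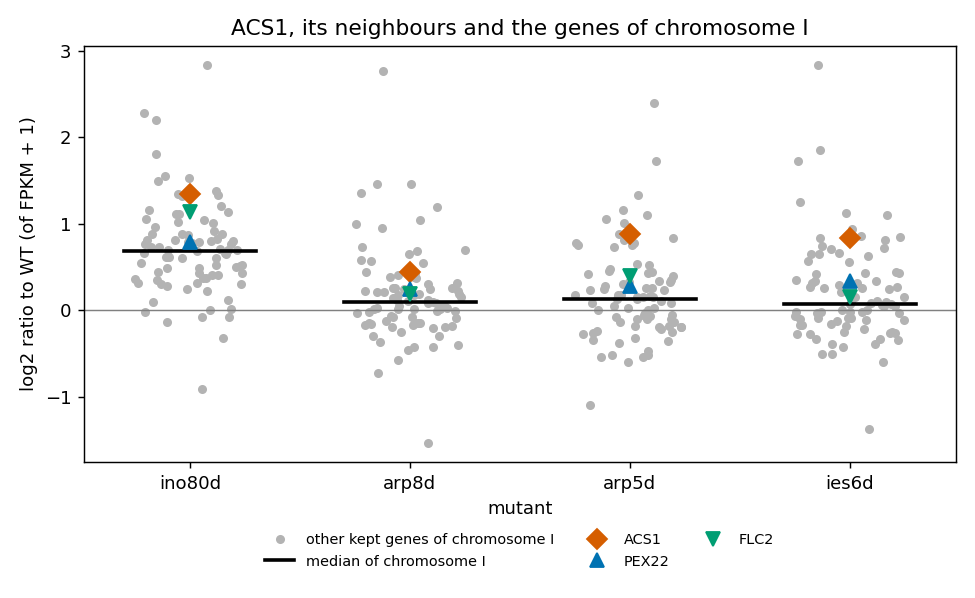
Log2 ratio of FPKM + 1 to WT for the 84 kept genes of chromosome I in each mutant, with a bar at their median and ACS1, PEX22 and FLC2 marked. The median is 0.69 in ino80d and between 0.08 and 0.13 in the other mutants, and ACS1 lies above it in all 4.

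The summed level of ACS1 and ACS2 was 265 FPKM in WT, against 161 in arp5d, 161 in ies6d, 147 in ino80d and 169 in arp8d. ACS1 made up 3.51% of that sum in WT, against 11.2% in arp5d, 10.8% in ies6d, 17.02% in ino80d and 7.69% in arp8d. ACS2 was thus the more abundant synthetase RNA in every strain. No chromosome median was taken off for these shares, and the median log2 ratio of chromosome I was 0.69 in ino80d. The coding sequences of the pair are identical at 60.4% of aligned positions and share no stretch of 50 bases. ALD6 RNA stood at 1.12 times ACS2 RNA in WT, and this ratio was 2.96 in arp5d, 2.99 in ies6d, 4.07 in ino80d and 4.20 in arp8d.

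From highest to lowest, the order in WT was ALD6, ACS2, ALD5, ALD4, ALD2, ACS1 and ALD3. In ino80d it was ALD6, ACS2, ALD4, ALD5, ACS1, ALD3 and ALD2. ALD6 led and ACS2 came next in all 5 strains, followed by ALD4 in all 4 mutants. Without replicates it cannot be said which neighbours in this order differ beyond their spread. In ino80d ACS1 and ALD3 were at 25.04 and 24.8 FPKM, and in WT at 9.28 and 8.35.

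None of the 7 genes was at least 1.5-fold higher or lower in both arp5d and ies6d than in both ino80d and arp8d. Over all features 0.161% were higher and 0.0646% lower in all of these cross pairs. Between single mutants, 2 of the 7 genes (ALD5 and ACS1) were at least 1.5-fold apart in ino80d and arp8d, where 7.54% of all features were, and 2 (ALD3 and ALD5) in ino80d and ies6d, against 6.31%. None was in ino80d and arp5d, against 3.84%. ALD6 was the 1 such gene in arp8d and arp5d, against 5.6%, and in arp8d and ies6d, against 6.77%. ALD3 was the 1 such gene in arp5d and ies6d, against 3.65%. No chromosome median was taken off for these counts. With it taken off, the ACS1 log2 ratios in ino80d and arp8d were 0.65 and 0.34, less than 1.5-fold apart.

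The genes most like each of the 7 were sought among 5408 other annotated ORFs of at least 300 bp, by the root mean square difference of log2 levels over the 5 strains after centring each gene. For ALD3 these were CIN5 at 0.11 and PGM2, a phosphoglucomutase gene, at 0.12, with 25 ORFs within 0.25. For ALD4 they were YER079W at 0.06 and YLR297W at 0.07, with 70 within 0.25. For ALD5 only PAU5, at 0.25, came within that distance, and ADE17, of purine synthesis, followed at 0.27. For ALD6 they were SSP1 at 0.09 and YAL065C at 0.10, with 178 within 0.25. SSP1 lay between 5.99 and 13.4 FPKM and YAL065C between 4.45 and 9.53, both far below ALD6 and near the low-value filter. For ACS1 they were IMP21 at 0.03 and NTG1, a DNA repair gene of chromosome I, at 0.06, with 202 within 0.25. For ACS2 they were ERG11, of ergosterol synthesis, at 0.02 and SUT2 at 0.05, with 1038 within 0.25. ALD2 had 3532 ORFs within that distance, led by RBP95 and YKL033W-A.

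Other steps around acetaldehyde, acetate and acetyl-CoA were followed in gene lists, whose counts are read against the shares of all features given above. The low-value filter is a mean over all 5 strains. PDC6, YAT1, MLS1 and GND2 were below 5 FPKM in WT and passed it only through their mutant levels. The filter thus favours counting these genes as higher, and their upward counts are not independent of it. The same holds for the medians of the lists they are in. From here on, 4 values in a row refer to arp5d, ies6d, ino80d and arp8d. Among the 8 pyruvate decarboxylase and alcohol dehydrogenase genes, 3, 2, 3 and 1 were past 1.5-fold upward and 4, 3, 3 and 1 downward, and the median log2 ratio was -0.35, -0.31, -0.19 and -0.19. PDC1, the main pyruvate decarboxylase gene, was at 6625 FPKM in WT, against 3803, 3626, 3528 and 4873. PDC6, a minor decarboxylase gene, was at 0.719 FPKM in WT, against 8.01, 5.53, 15.6 and 11.7. ADH2, the glucose-repressed alcohol dehydrogenase that turns ethanol back into acetaldehyde, was at 28.8 FPKM in WT, against 71.4, 65.5, 84.3 and 36.8. As 14.03% of the 50-base windows of ADH2 occur elsewhere in the genome, its value is uncertain.

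The pyruvate dehydrogenase complex makes acetyl-CoA inside mitochondria without passing through acetate. None of its 5 genes was 1.5-fold away in any mutant, and their median log2 ratio was -0.01, -0.06, -0.10 and -0.05. This count does not set the complex apart, since most features stayed inside the limit as well. Per mutant, the upward share was 11% to 15.1% and the downward share 8.33% to 13.2%. The log2 ratios of PDA1, PDB1 and LAT1 ran from -0.46, for PDA1 in ino80d, to 0.27, for LAT1 in arp8d.

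Among genes of acetate and acetyl group transport, 8 of 9 passed the low-value filter. Of these, 4, 5, 3 and 4 were past 1.5-fold upward and 1, 1, 1 and 0 downward, and the median log2 ratio was 0.64, 0.78, 0.53 and 0.47. Among them YAT1 lies on chromosome I, whose median log2 ratio was 0.69 in ino80d. ADY2 lies on chromosome III, whose median was 0.36 in ies6d, and no chromosome median was taken off for these counts. ACH1, a mitochondrial enzyme that moves coenzyme A between acyl groups and acetate, was at 14.7 FPKM in WT, against 38.6, 41.3, 31.7 and 34.6. ATO3, a putative ammonium transporter gene of the same family as the acetate transporter gene ADY2, was at 207 FPKM in WT, against 94.3, 89.6, 115 and 146. CRC1, the mitochondrial carnitine carrier gene, did not pass the filter and lay between 1.10 and 4.19 FPKM in the 5 strains.

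Among the 8 genes of enzymes that use acetyl-CoA, 1, 3, 2 and 2 were past 1.5-fold upward and 1, 1, 1 and 0 downward, and the median was 0.01, -0.02, 0.10 and 0.07. CIT1, the mitochondrial citrate synthase gene, was at 65.1 FPKM in WT, against 189, 186, 165 and 176. MLS1, the malate synthase gene of the glyoxylate cycle, was at 3.45 FPKM in WT, against 5.59, 6.10, 7.05 and 7.32. LYS20, a homocitrate synthase gene of lysine synthesis, was at 264 FPKM in WT, against 116, 169.8, 69.6 and 179.7, lowest in ino80d and arp5d, the strains with almost no LYS2 RNA. It shares 37.8% of its windows with other DNA, so that its value is uncertain.

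Of 4 other aldehyde dehydrogenase genes, only UGA2, which oxidises succinate semialdehyde in the use of gamma-aminobutyrate, was at least 1.5-fold away in any mutant. It was at 21.9 FPKM in WT, against 61.1, 76.9, 56.6 and 53.95. HFD1, a fatty aldehyde dehydrogenase gene, had log2 ratios of 0.02 to 0.35, and MSC7 of -0.51 to -0.26. The median of the 4 was 0.01, 0.10, -0.14 and 0.19.

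Among 6 other acyl-CoA synthetase genes, 1, 1, 1 and 0 were past 1.5-fold upward and 3, 3, 2 and 2 downward, and the median was -0.36, -0.41, -0.23 and -0.15. FAA3, a long-chain fatty acyl-CoA synthetase gene, was at 61.4 FPKM in WT, against 17.3, 18.997, 15.98 and 31.02. FAA4, of the same kind, had log2 ratios of -0.74, -0.78, -0.50 and -0.64, and FAA1 of 0.69, 0.93, 0.69 and 0.57.

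In the synthesis of beta-alanine and coenzyme A, to which ALD2 and ALD3 contribute, 1, 1, 1 and 0 of 9 other genes were past 1.5-fold upward and 0, 1, 1 and 0 downward, and the median was -0.03, 0.00, 0.02 and 0.06. FMS1, the polyamine oxidase whose product these dehydrogenases oxidise, was at 31.4 FPKM in WT, against 20.6, 19.4, 19.1 and 29.6. ECM31, of pantothenate synthesis, was at 44.6 FPKM in WT, against 69.98, 76.9, 75.2 and 56.8, and CAB4 had log2 ratios of -0.32 to -0.14.

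Of 4 other genes of cytosolic NADPH supply, 2, 1, 2 and 2 were past 1.5-fold upward and none downward, and the median was 0.36, 0.27, 0.35 and 0.42. ZWF1, which opens the pentose phosphate pathway, had log2 ratios of -0.43, -0.42, -0.36 and -0.35. GND1, the most abundant of the 4 genes, had log2 ratios of -0.06, -0.02, -0.38 and -0.30. As both were below WT in every mutant, the sign of the median depends on counting GND2. GND2, the minor phosphogluconate dehydrogenase gene, was at 4.05 FPKM in WT, against 8.82, 14.8, 9.54 and 11.6. IDP2, the cytosolic isocitrate dehydrogenase gene, was at 6.65 FPKM in WT, against 12.1, 10.3, 15.7 and 15.8.

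Of 11 regulator genes, 9 passed the low-value filter, and the median was 0.18, 0.16, 0.41 and 0.27. In each mutant 3 of them, ADR1, HAP4 and MSN4, were past 1.5-fold upward, against 11% to 15.1% of all features, and none downward. HAP4, the regulated subunit gene of the Hap complex, was at 41.1 FPKM in WT, against 221, 280.4, 169.8 and 276. MSN4, a stress transcription factor gene, was at 30.9 FPKM in WT, against 94.2, 128, 114 and 97.5. ADR1, an activator of glucose-repressed genes such as ADH2, was at 8.21 FPKM in WT, against 25.01, 21.2, 21.4 and 20.1. MSN2 stayed within 1.5-fold of WT, with log2 ratios of -0.24, -0.25, 0.05 and -0.07. CAT8 and SIP4 did not pass the filter.

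**Figure D5:**
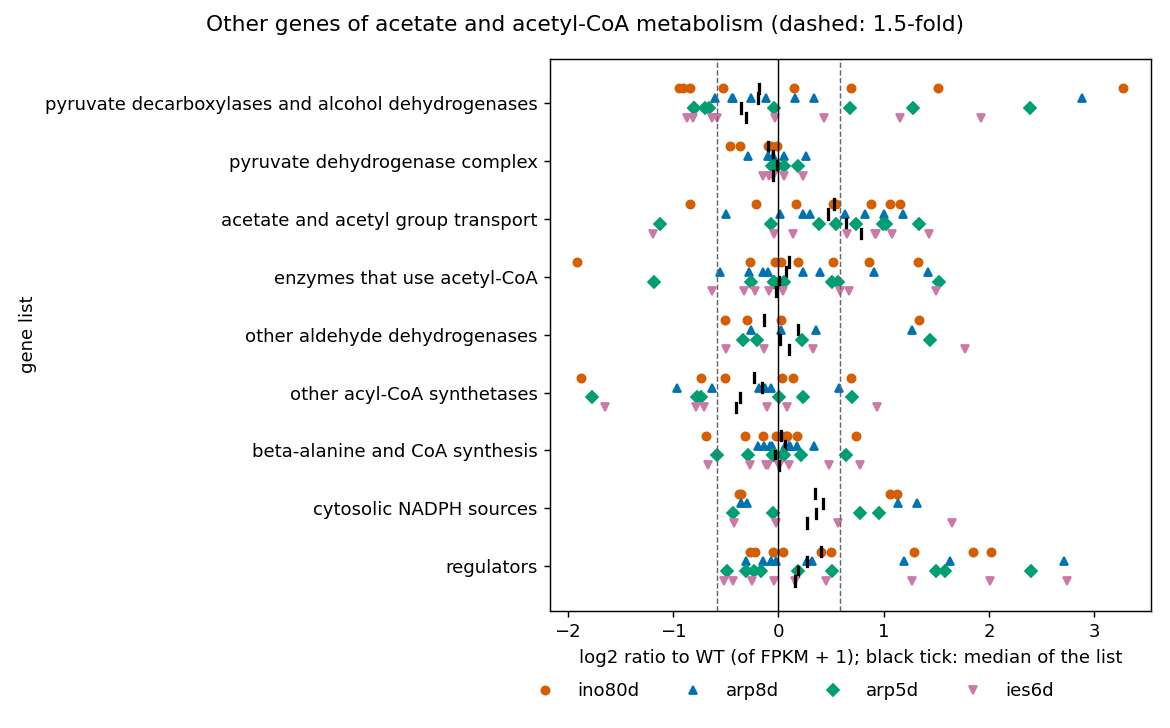
Log2 ratio of FPKM + 1 to WT of the genes in each list, with 1 point per gene and mutant, a black tick at the median of each list and dashed lines at 1.5-fold. Genes of the pyruvate dehydrogenase complex all lie between the dashed lines, and the 3 regulator genes to the right of them are ADR1, HAP4 and MSN4.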

How the data were processed

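Poly(A) RNA of 5 strains was measured, and the authors deposited 1 table of FPKM values with 1 column per strain, each for 2 biological replicates per the labels. All 5 columns were used. TopHat2 and Cuffdiff, with the build sacCer3, are named in the submitters' processing notes. Their versions, the annotation, the library size setting and the handling of fragments that fit several genes are not given in the sources used here. The kit named in the labels, TruSeq RNA v2, does not record strand, and none of the 7 genes overlaps another annotated gene. Low FPKM values times gene length gave no common step, so depth could not be recovered and no counting interval or floor is given.

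From the deposited FPKM, log2 ratios of FPKM + 1 to WT were computed for features with a mean of at least 5 FPKM, without rescaling. Of 6567 IDs, 5888 matched a locus tag of the RefSeq R64 annotation. Positions, motifs, identity (global alignment, biopython 1.88) and 50-base windows come from that assembly. With 1 value per strain no test, p-value or replicate check was possible.

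Named genes were the 7 genes, their neighbours, the 2 ORFs most like each by pattern, label checks, and up to 3 genes per list, those with the largest absolute mean log2 ratio over the mutants. A few further list genes are named where they limit a count or median or bind a motif named above. The 7 genes were given by systematic name, and whether earlier results bore on that choice is not known. The lists were chosen with earlier results of these data known. Other settings tried were a pseudocount of 0.1 or 5 FPKM, a filter at 20 FPKM or none, centring on the median, an equal FPKM sum, subtraction of the chromosome median and a 2-fold limit. A restriction to annotated ORFs of at least 300 bp was added after the data were seen.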

Additional observations from a re-analysis of the deposited data

How the results depend on the processing

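Of 28 log2 ratios to WT (7 genes in 4 mutants), all 28 kept their side of the 1.5-fold limit with pseudocounts of 0.1 and 5 FPKM, 27 with centring on the median of each strain, 26 with the chromosome median taken off and 25 with an equal FPKM sum. None past the limit changed direction under these settings. ALD6 moved past the limit in arp5d with the chromosome median taken off (0.61) or an equal sum (0.61), but not with centring (0.58). In ies6d it did so with that median taken off (0.64) or centring (0.60), whereas an equal sum moved it to 0.44. ACS1 in arp8d moved past it with an equal sum (0.60), and ACS2 in arp8d fell short of it (-0.42), which left 1 gene lower in arp8d. An equal sum shifted the median of all features to 0.03 in arp5d, -0.15 in ies6d, 0.13 in ino80d and 0.24 in arp8d. The shares of features at least 1.5-fold higher and lower then became 13.3% and 8.61% in arp5d, 10.5% and 13.9% in ies6d, 18.7% and 8.22% in ino80d, and 19.1% and 3.04% in arp8d. As deposited they were 13.3% and 10.9%, 14.4% and 10.4%, 15.1% and 13.2%, and 11% and 8.33%. For the equal sum, each strain was set to 1e+06 before 1 was added, against deposited sums of 2.77e+06 to 3.71e+06. The added 1 thus weighed more than in the deposited values, above all for low genes. Its part in these shifts was not separated from that of the sum. A mean of at least 20 FPKM left out ALD2 and ACS1, while ALD3, at 8.35 FPKM in WT, passed it only through its mutant levels. Dropping the filter could not change the counts, because all 7 genes had passed it. At 2-fold, 1 gene, ALD5, was lower in each of arp5d, ies6d and arp8d. No paired analysis was possible because each strain has 1 value for both replicates, and for the same reason no replicate could be left out. Low genes (ALD2, ALD3 and ACS1) rest on fewer fragments, whose number is unknown.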

Other observations

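Genes beside the 7 differed from WT in several cases, and 4 values in a row again refer to arp5d, ies6d, ino80d and arp8d. VTC1, a gene of polyphosphate synthesis that lies 834 bases upstream of ALD5 on the same strand, was lower together with it, at 1594 FPKM in WT, against 512, 486, 449 and 582. RPS24A, the ribosomal protein gene on the other side of ALD5, had log2 ratios of -0.15, 0.04, -0.48 and -0.39. GDH1, the glutamate dehydrogenase gene of ammonia assimilation, ends 278 bases from the end of ALD4 on the opposite strand and went the opposite way, with 503 FPKM in WT, against 263, 279, 233 and 231. NUD1, on the upstream side of ALD4, had log2 ratios of -0.41 to -0.24. MFM1, a mitochondrial magnesium transporter gene downstream of ALD6, was higher with it, at 16.5 FPKM in WT, against 27.1, 28.99, 28.1 and 29.1. YPL062W, upstream of ALD6, lay between 1.24 and 2.33 FPKM in all 5 strains.

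EAR1, a sorting factor gene upstream of ALD2, was at 62.1 FPKM in WT, against 99.6, 116, 137 and 75.4, while ALD2 stayed within 1.5-fold of WT. CEP3, a kinetochore gene downstream of ALD3, had log2 ratios of 0.38, 0.33, 0.42 and 0.42. Beside ACS2, YLR152C and RNH203 had log2 ratios of -0.24 to 0.10 and -0.14 to 0.04. Whether a change at a gene and at its neighbour are related was not tested.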
